A study of Mus musculus with 12 samples.

Results

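Mouse embryonic stem cells of the E14 line were differentiated and sorted by 2 fluorescent reporters, and the transcriptome of cells positive for both reporters (SOX17+/T+) was compared with that of cells sorted as positive for the T reporter (T+). The comparison rests on 6 of the 12 libraries of the series, 3 SOX17+/T+ and 3 T+, chosen by their sort labels alone. The other 6 are 3 libraries of cells sorted as SOX17+ and 3 of undifferentiated mESC. The parent cells were grown on gelatin with irradiated mouse embryonic fibroblasts, in serum with LIF. All 3 sorted groups were differentiated, dissociated and sorted on reporter expression. The labels do not give the differentiation protocol and its length, the design of the reporters, the number of clones, or whether T+ cells were gated as negative for SOX17. They do not name the replicates as separate cultures, and the p-values thus reflect only how far these samples vary. The question the groups pose is what goes with the gain of the SOX17 reporter among T+ cells.

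T, also called brachyury, is the T-box transcription factor of the primitive streak, the region of the gastrulating embryo where epiblast cells leave the epithelium and form mesoderm and definitive endoderm. SOX17 is a high-mobility-group transcription factor that is required for definitive endoderm, and it is also expressed in extraembryonic endoderm and in endothelium. Endoderm forms from streak cells in which NODAL signalling is high, and it is epithelial, whereas nascent mesoderm is mesenchymal and migratory. In bulk libraries such as these, a smaller number of cells of one type and less RNA in each cell cannot be told apart.

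The values are TPM, the share of a library's transcripts after correction for transcript length. Every library sums to 1000000 TPM, so the depth behind a value is unknown. Of 54446 genes, 16097 had at least 1 TPM in at least 3 of the 12 libraries and were tested with limma on log2(TPM + 1). Log2 fold changes are given as SOX17+/T+ minus T+ with their standard error, on that scale, which understates the change of genes at a few TPM or less. A gene is said to rise or fall, or to be called, where the p-value adjusted over all tested genes by the Benjamini-Hochberg method was below 0.05. Pearson correlations of log2(TPM + 1) were 0.995 to 0.996 between libraries of the same group and 0.983 to 0.987 between the groups. Mitochondrially encoded transcripts took 6.53% ± 0.256 of the TPM in T+ and 6.51% ± 0.398 in SOX17+/T+ (SD, n = 3 each). A value of 0 is reported as listed, since 14 genes in T+ and 13 in SOX17+/T+ had 0 in one replicate but reached 5 TPM in a different one.

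Sox17 followed the sort labels in this comparison, whereas T differed between 2 groups that share the T label. Sox17 (ENSMUSG00000025902.13, chromosome 1, 4490931 to 4497354, minus strand, GRCm38) stood at 7.96, 9.99 and 12.9 TPM in T+ replicates 1, 2 and 3, and at 147.5, 146.2 and 122.9 TPM in SOX17+/T+. It was thus low but present in every T+ library, and the mean was 13.5 times higher in SOX17+/T+ (138.9 ± 13.8 against 10.3 ± 2.5 TPM, SD, n = 3 each). The log2 fold change was 3.65 ± 0.14 (limma adjusted p = 7.56e-09). T (ENSMUSG00000062327.10, chromosome 17, 8434423 to 8442496, plus strand) stood at 132.3, 92.1 and 157.8 TPM in T+ and at 40.4, 31.7 and 61.5 TPM in SOX17+/T+. The ranges did not overlap, and the double-positive cells, although sorted on the T reporter, held 0.349 of the T+ mean (log2 fold change -1.52 ± 0.24, limma adjusted p = 8.00e-04). Cells sorted as SOX17+ held 2.27, 1.86 and 2.84 TPM of T and 243.5, 211.3 and 234.9 TPM of Sox17. The double-positive libraries therefore lay between the other sorted groups for both genes. Since the sort chose cells on these reporters, both differences describe the gates as well as the cells.

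**Figure D1:**
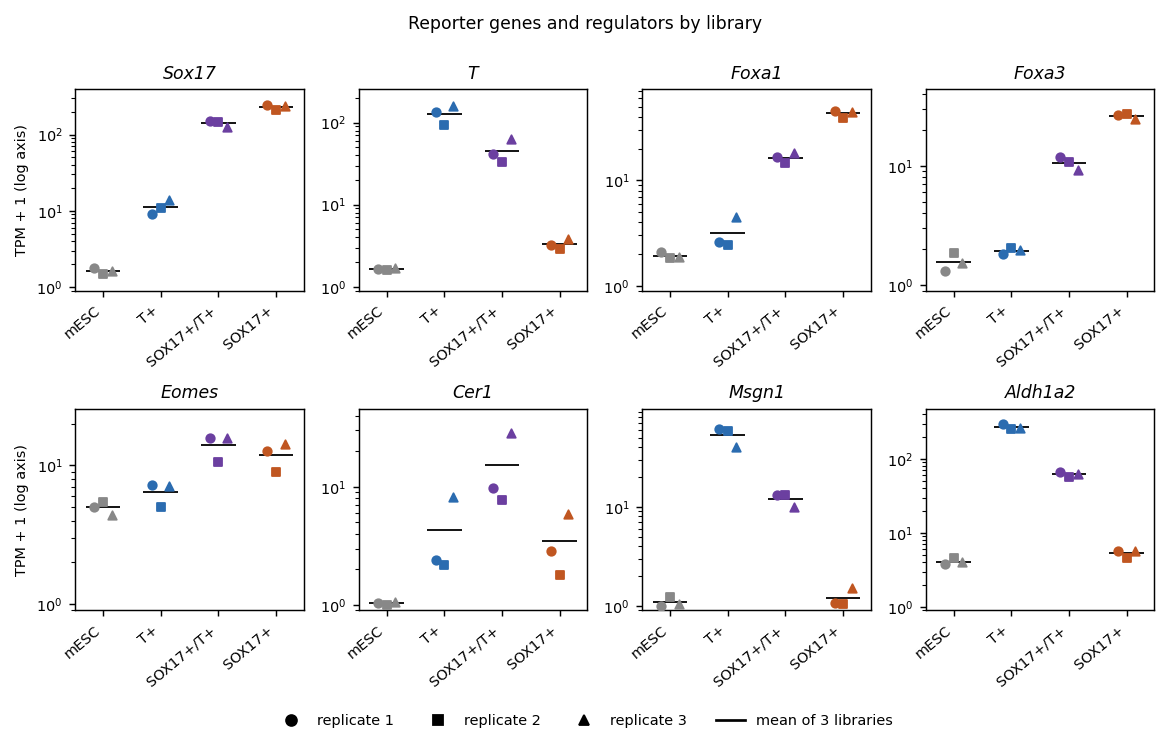
TPM + 1 on a log axis for 8 genes in each library of the 4 groups; symbols mark the replicate number and the line the mean of 3 libraries. Sox17, Foxa1 and Foxa3 were higher in all 3 SOX17+/T+ libraries than in any T+ library, T, Msgn1 and Aldh1a2 were lower, and Cer1 overlapped.

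Across the transcriptome, 4578 genes differed between SOX17+/T+ and T+, which is 28.4% of those tested. Of these, 2034 (12.6% of those tested) were higher and 2544 (15.8%) were lower in SOX17+/T+. The differences were mostly small, with a median absolute log2 fold change of 0.35 among the genes that differed. Larger ones leaned to the side of the SOX17 reporter: 285 genes (1.77%) rose by at least 2-fold and 118 (0.733%) fell by at least 2-fold. The 3 libraries of each group did not overlap in 4465 of the 4578 genes called, and in 402 of the 403 at least 2-fold apart. That follows from choosing genes by their test and size and is no further support. The share over all tested genes is not given. The median log2 fold change of all tested genes was -0.03, against which the medians of the gene lists below are to be read. Counts of list members that rose or fell are likewise to be read against 12.6% and 15.8%.

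**Figure D2:**
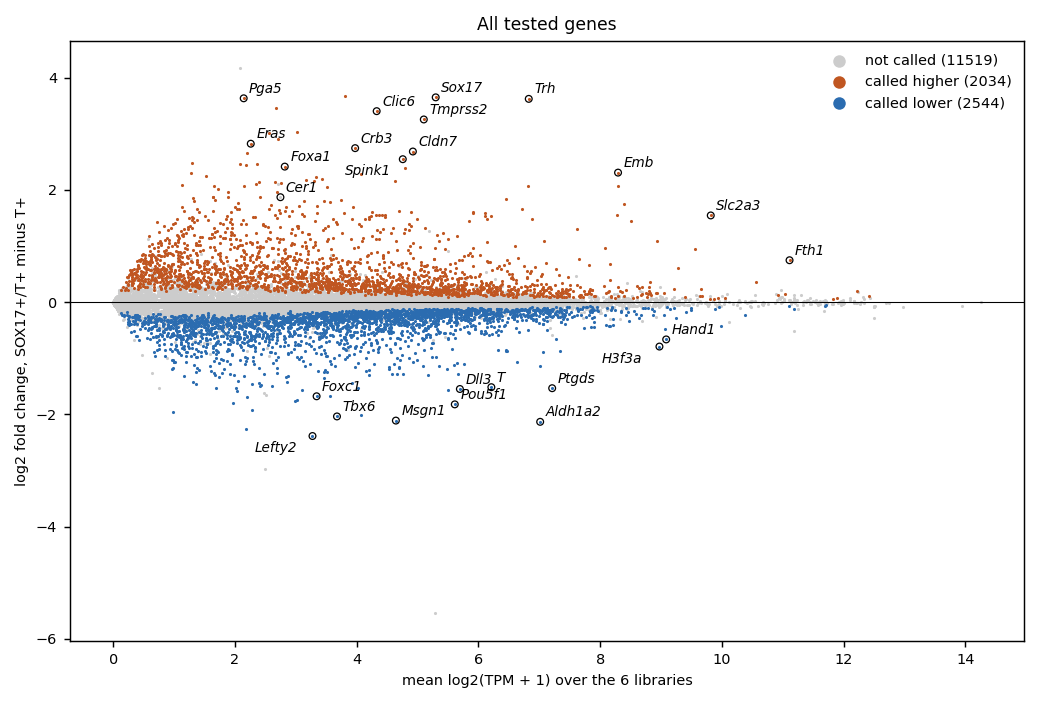
Log2 fold change (SOX17+/T+ minus T+) against the mean log2(TPM + 1) over the 6 libraries for all 16097 tested genes, with genes called higher in orange, called lower in blue and not called in grey. The largest changes are rises: Sox17, Pga5 and Trh reach log2 fold changes of 3.65, 3.63 and 3.62, whereas the largest named fall, Lefty2, is at -2.38.

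The largest rises among genes with a mean of at least 10 TPM were led by Sox17, Pga5, Trh, Clic6 and Tmprss2. Trh, the precursor of thyrotropin-releasing hormone and an early endoderm marker, stood at 27.8, 24.1 and 45.9 TPM in T+ and at 416.3, 296.7 and 507.6 TPM in SOX17+/T+ (log2 fold change 3.62 ± 0.26). The SOX17+ libraries overlapped the double-positive ones for this gene (468.8, 354.8 and 454.5 TPM). The serine protease gene Tmprss2 rose from 8.97, 10.2 and 11.4 TPM to 117, 106 and 93.8 TPM (3.26 ± 0.08). Clic6, a chloride channel protein of secretory epithelia, rose from 4.45, 5.47 and 5.69 TPM to 70.5, 66.8 and 56.6 TPM (3.4 ± 0.1). The apical polarity gene Crb3 (2.74 ± 0.11) and the tight junction gene Cldn7 (2.68 ± 0.07) were among the 15. So were the trypsin inhibitor gene Spink1 (2.55 ± 0.13), the cofactor gene Eya2 (2.66 ± 0.12), the carboxypeptidase N gene Cpn1 (2.9 ± 0.11), the glutathione peroxidase gene Gpx2 (3.01 ± 0.21) and the cytochrome P450 gene Cyp1a1 (2.45 ± 0.11). Myl3, a myosin light chain best known from slow muscle and heart ventricle, rose by 3.03 ± 0.18.

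Pga5 and Eras, among these 15 rises, had higher levels in the double-positive cells than in cells sorted as SOX17+. Pga5, a pepsinogen gene, stood at 0.265, 0.121 and 0.397 TPM in T+, at 14.8, 10.7 and 19.4 TPM in SOX17+/T+ and at 7.41, 5.56 and 10.3 TPM in SOX17+. Eras, a RAS-family GTPase gene of undifferentiated ES cells, stood at 0.656, 0.867 and 0.889 TPM in T+, at 13.2, 10.4 and 11.9 TPM in SOX17+/T+ and at 8.75, 7.25 and 7.06 TPM in SOX17+. Against T+ the log2 fold changes were 3.63 ± 0.22 for Pga5 and 2.82 ± 0.09 for Eras. SOX17+ minus SOX17+/T+ was -0.87 ± 0.22 for Pga5 (limma adjusted p = 0.0085) and -0.56 ± 0.09 for Eras (limma adjusted p = 3.76e-04), in a comparison that shares the double-positive libraries and in which 36.6% of tested genes differed. In TPM, the largest gains were those of Slc2a3 and Slc2a1, the glucose transporters GLUT3 and GLUT1, of the ferritin heavy chain Fth1, of Ldha and of embigin (Emb). Emb, a chaperone of monocarboxylate transporters, rose from 128.3, 131.2 and 163 TPM to 728.7, 645.1 and 721.7 TPM (2.31 ± 0.08).

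The largest falls included the mesoderm regulators Msgn1, Tbx6, Mesp1 and Foxc1 along with the pluripotency gene Pou5f1. Lefty2, a secreted NODAL antagonist and NODAL target, stood at 22.3, 17.1 and 24.7 TPM in T+ and at 3.2, 2.41 and 4.3 TPM in SOX17+/T+ (-2.38 ± 0.15). Aldh1a2, the main retinoic acid synthesising enzyme of the mesoderm, went from 292.2, 256.5 and 261.8 TPM to 65.4, 55.9 and 61.3 TPM (-2.13 ± 0.1, limma adjusted p = 9.93e-09), which leaves 0.225 of the T+ mean. The presomitic mesoderm regulators Msgn1 (59.5, 56.9 and 39.1 TPM against 12.2, 12.1 and 9.07 TPM) and Tbx6 (31.4, 22.6 and 21.7 TPM against 6.49, 4.32 and 5.32 TPM) fell by 2.11 ± 0.18 and 2.04 ± 0.16. None of these ranges overlapped, and none of the genes reached 0 in SOX17+/T+. Further falls were those of the insulin-like growth factor binding protein Igfbp3 (-2.02 ± 0.16), the protocadherin Pcdh19 (-1.76 ± 0.1), the G-protein subunit Gna14 (-1.57 ± 0.09) and the prostaglandin D synthase Ptgds (-1.53 ± 0.13). Sprr2a2 (-1.74 ± 0.11) belongs to a family of near-identical copies, among which reads may have been split. In TPM, the largest losses were those of the heparan sulfate proteoglycan Gpc3 (1177, 1183 and 1165 TPM against 873.9, 874.1 and 878.9 TPM), the histone gene H3f3a, the bHLH factor Hand1, the growth factor midkine (Mdk) and Aldh1a2. The H3f3a fall (-0.79 ± 0.23, limma adjusted p = 0.034) did not pass the test after leaving out any 1 of the 6 libraries (adjusted p up to 0.097), and this gene also has near-identical copies.

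**Figure D3:**
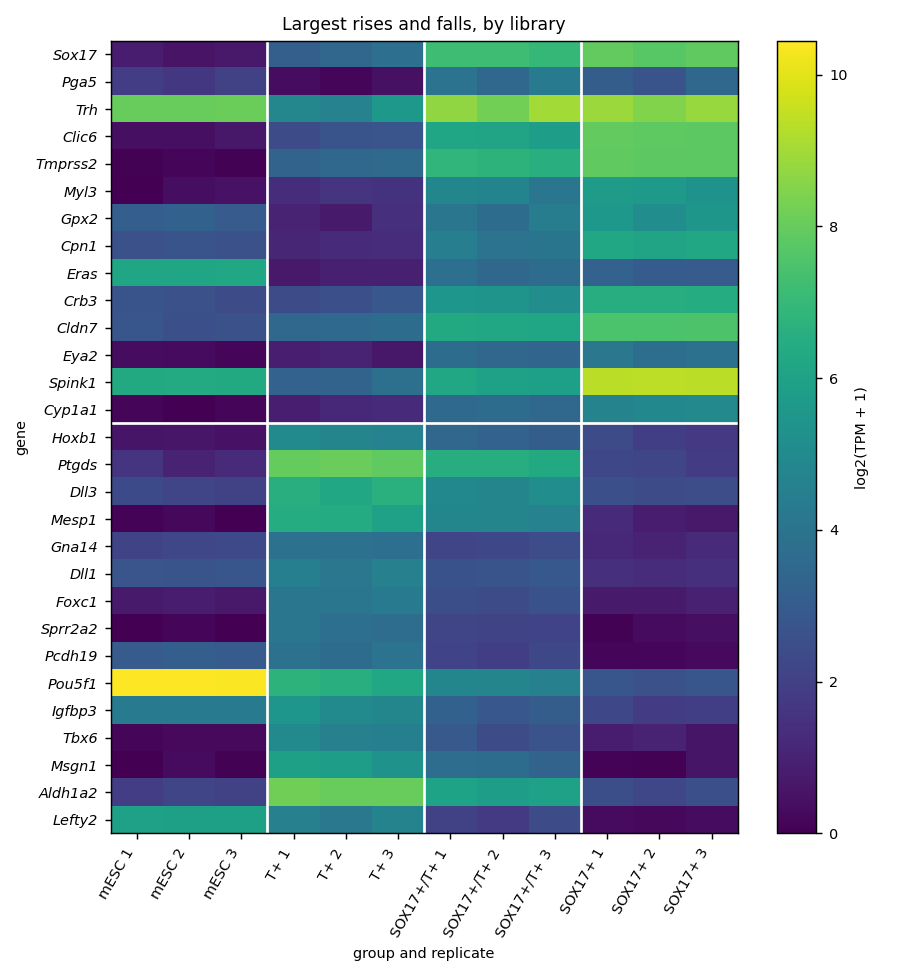
Log2(TPM + 1) of 14 of the 15 largest rises (upper block) and the 15 largest falls (lower block) in all 12 libraries, columns grouped by sort. The 3 libraries of a group have alike colours; of the rises, Eras (70.7 TPM in replicate 1), Trh (255.3 TPM) and Spink1 (80.2 TPM) were also expressed in undifferentiated mESC.

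Promoter sequences were matched by symbol to the RefSeq windows of GRCm38.p6 (250 bases before to 50 after an annotated start, of which a gene can have several). Whether a window lies at the main start of its gene was not examined. Of the 15 rises 9 genes had an entry (11 windows), and of the 15 falls 14 did (16 windows). Both strands were searched for 4 short motifs that do not contain each other: TGTTTAC for FOXA proteins, AACAATG for SOX proteins, TCACACCT for T-box proteins and AACCNGGTT for Grainyhead proteins. The shares of all 32851 windows that hold them are 3.65%, 3.78%, 1.28% and 0.271%. Among the rises, 1 window held the FOXA motif (Cpn1) and 1 the SOX motif (Myl3). Among the falls, 1 held the T-box motif (Mesp1) and 1 the SOX motif (Pou5f1). No window of either set held the Grainyhead motif. With so few windows these counts are a description of the letters and not of binding. These 4 windows are shown because they are the ones that hold a motif, in capitals, among those of the 30 largest changes that had an entry. Genes without an entry were not searched. The 4 windows shown are those of Cpn1 (chr19:43986471-43986770, minus strand, FOXA), Mesp1 (chr7:79793541-79793840, minus strand, T-box), Myl3 (chr9:110763428-110763727, plus strand, SOX) and Pou5f1 (chr17:35508557-35508856, plus strand, SOX).
Cpn1: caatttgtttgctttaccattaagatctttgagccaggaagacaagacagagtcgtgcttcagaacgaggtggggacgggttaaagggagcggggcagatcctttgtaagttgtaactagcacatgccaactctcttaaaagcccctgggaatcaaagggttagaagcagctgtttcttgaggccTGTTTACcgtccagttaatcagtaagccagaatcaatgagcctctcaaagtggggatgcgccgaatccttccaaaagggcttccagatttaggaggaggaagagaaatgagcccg
Mesp1: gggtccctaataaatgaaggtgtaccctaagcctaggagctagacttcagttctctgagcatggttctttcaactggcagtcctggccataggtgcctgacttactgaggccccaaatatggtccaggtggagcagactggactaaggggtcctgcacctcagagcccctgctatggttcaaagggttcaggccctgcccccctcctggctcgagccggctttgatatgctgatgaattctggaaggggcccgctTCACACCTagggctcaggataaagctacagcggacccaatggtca
Myl3: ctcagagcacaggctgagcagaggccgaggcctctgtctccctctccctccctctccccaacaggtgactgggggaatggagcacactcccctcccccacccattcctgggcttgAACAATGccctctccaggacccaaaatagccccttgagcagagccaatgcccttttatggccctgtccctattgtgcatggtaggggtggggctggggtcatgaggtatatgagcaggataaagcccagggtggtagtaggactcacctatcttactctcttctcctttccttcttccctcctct
Pou5f1: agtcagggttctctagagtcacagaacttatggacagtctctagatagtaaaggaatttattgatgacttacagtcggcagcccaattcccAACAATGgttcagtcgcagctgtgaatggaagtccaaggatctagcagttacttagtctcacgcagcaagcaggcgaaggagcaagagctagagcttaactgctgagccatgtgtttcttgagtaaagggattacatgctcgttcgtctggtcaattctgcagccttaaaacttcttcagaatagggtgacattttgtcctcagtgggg

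Genes of the primitive streak were mostly lower in the double-positive cells. Of 14 tested, 9 fell and 1 rose (median log2 fold change -0.78), where 15.8% of all tested genes fell and 12.6% rose. Mesp1, the bHLH factor of the earliest cardiac and cranial mesoderm, stood at 88.8, 84.7 and 61.2 TPM in T+ and at 26.7, 25.7 and 23.9 TPM in SOX17+/T+ (-1.57 ± 0.16, limma adjusted p = 1.21e-05). Its level in SOX17+ cells was 1.46 TPM or less. Wnt3a, which maintains the posterior streak, fell by 1.19 ± 0.18. The one rise was that of Eomes, the T-box factor that acts upstream of both Mesp1 and Sox17. Eomes stood at 6.23, 4 and 6.05 TPM in T+ and at 14.7, 9.51 and 14.9 TPM in SOX17+/T+ (1.12 ± 0.21, limma adjusted p = 0.0021), and at 11.7, 7.98 and 13.2 TPM in SOX17+. Of these T-box genes of the streak, T thus fell and Eomes rose. Evx1 (29.6, 24.1 and 23.6 against 28.3, 22.9 and 24.6 TPM) and the WNT-responsive Sp5 (42.7, 35 and 44.3 against 41.3, 32 and 41.1 TPM) overlapped, as did the anterior streak genes Gsc and Lhx1. Among node and notochord genes, 4 of 11 fell and 1 rose (median -0.33). Noto, a homeobox gene of the node, fell by 1.53 ± 0.26. The count of falls was 1 without SOX17+/T+ replicate 1 or 2 or T+ replicate 3. Foxa2 was the rise, while the node genes Shh, Chrd and Foxj1 did not pass the test. Replicate 3 was the highest of its group for Shh in both sorts (33.5 TPM in T+ and 25.7 TPM in SOX17+/T+, against 13 to 14.1 TPM in the other 4 libraries).

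Genes of mesoderm that has left the streak fell in each of the lists examined. Among presomitic and segmentation genes 10 of 13 fell and none rose (median -1.18). They included the Notch ligand genes Dll1 (21.9, 16.7 and 22.4 TPM against 5.16, 5.53 and 6.28 TPM, -1.67 ± 0.1) and Dll3 (-1.55 ± 0.11), and the segment boundary genes Mesp2 (-1.31 ± 0.08) and Ripply2 (-1.25 ± 0.16). All 5 tested paraxial and somite genes fell (median -1.44, or -0.68 with no filter on low values), among them Foxc1 (-1.68 ± 0.09), Foxc2 (-1.44 ± 0.23), Tcf15 (-1.29 ± 0.22) and Meox1 (-1.06 ± 0.19); 5 further genes of that list were below the expression limit. Lateral and cardiac genes changed less: 8 of 13 fell, none rose, and the median was -0.58. Hand1, a regulator of lateral and extraembryonic mesoderm, remained abundant at 388.8, 441.9 and 463.5 TPM after 677.7, 730.3 and 641.7 TPM in T+ (-0.66 ± 0.07). The largest fall in that list was that of Osr1 (-1.21 ± 0.12). Gata4, a factor shared by cardiac mesoderm and endoderm, overlapped at 68.2, 64.2 and 66.1 TPM in T+ against 73, 64.1 and 68.8 TPM in SOX17+/T+. The share of genes lower at this test was 15.8% over the whole transcriptome.

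Caudal genes and HOX genes were lower in the double-positive cells, where 15.8% of all tested genes fell. Of 8 tested caudal and axial progenitor genes 6 fell and none rose (median -0.77, or -1.19 with a pseudocount of 0.1), among them the homeobox genes Cdx2 (58.7, 47 and 39.2 TPM against 31.7, 26.7 and 27.2 TPM, -0.72 ± 0.14) and Nkx1-2 (-1.29 ± 0.18). HOX genes give cells their position along the body axis and are switched on in order from paralog group 1 onwards. All 11 tested genes of paralog groups 1 to 4 fell (median -0.96), led by Hoxa2 (-1.58 ± 0.09), Hoxb1 (30.2, 26.3 and 24.1 TPM against 9.82, 8.82 and 7.38 TPM, -1.53 ± 0.15) and Hoxa3 (-1.48 ± 0.13). The smallest of these falls, Hoxc4 (1.14, 0.953 and 0.492 TPM against 0.558, 0.519 and 0.328 TPM, limma adjusted p = 0.049), overlapped between groups and did not pass without any 1 of those libraries except T+ replicate 3 (adjusted p up to 0.2). Of 17 tested genes of groups 5 to 13, 9 fell and none rose (median -0.47, or -0.86 with a pseudocount of 0.1), led by Hoxd9 (-1.1 ± 0.12) and Hoxd8 (-1.1 ± 0.13). Neighbouring HOX genes lie in the same clusters and overlap with antisense transcripts, so their counts are not independent.

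Definitive endoderm genes rose almost throughout. Of 16 tested, 14 rose and none fell, with a median log2 fold change of 1.68, where 12.6% of all tested genes rose. The list holds Sox17 itself and several epithelial genes that are named again below. The FOXA factors, which open chromatin at endoderm enhancers, rose to different degrees. Foxa1 went from 1.6, 1.43 and 3.52 TPM to 15.6, 13.5 and 17 TPM (2.41 ± 0.19), and Foxa3 from 0.832, 1.04 and 0.956 TPM to 10.8, 9.75 and 8.15 TPM (2.44 ± 0.12). Foxa2, which marks anterior streak, node and notochord as well as endoderm, was already at 23, 19.3 and 36.2 TPM in T+ and rose to 58.2, 49.2 and 71.9 TPM (1.19 ± 0.22, limma adjusted p = 0.0025). Prdm1, a transcriptional repressor used by endoderm and germ cells, rose from 3.98, 4.1 and 4.17 TPM to 14.3, 11.6 and 10.3 TPM (1.35 ± 0.1). The 2 members that did not rise were Gata4 and Cxcr4. Cxcr4, a chemokine receptor widely used to sort endoderm, stood at 64.5, 61.2 and 69.5 TPM in T+ and at 47, 48 and 65.2 TPM in SOX17+/T+. Its log2 fold change of -0.29 ± 0.18 did not pass the test (limma adjusted p = 0.25), and with the replicate number as a block it passed as a fall (adjusted p = 0.045). This gene was named after its values were seen.

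Regional endoderm markers gave a mixed picture, where 12.6% of all tested genes rose and 15.8% fell. Among anterior and foregut genes 3 of 13 rose and 3 fell (median 0.16, or 0.25 and 0.31 without SOX17+/T+ replicate 1 and 2). Hhex rose from 2.43, 2.79 and 3.23 TPM to 5.76, 5.71 and 8.49 TPM (0.99 ± 0.13), Nkx2-1 from below 0.3 TPM to 1.85, 1.63 and 1.05 TPM (1.09 ± 0.1), and the WNT antagonist Dkk1 by 0.57 ± 0.13. Lefty1, Sox2 and Nkx2-3 fell. Cer1, a secreted antagonist of NODAL, BMP and WNT made by anterior endoderm, stood at 1.42, 1.17 and 7.24 TPM in T+ and at 8.69, 6.72 and 27.3 TPM in SOX17+/T+. The groups overlapped because replicate 3 was high in both sorts, and the log2 fold change of 1.87 ± 0.67 did not pass the test (limma adjusted p = 0.068). Within each replicate number the difference was alike (2.00, 1.83 and 1.78), and with that number as a block Cer1 passed (adjusted p = 0.0047). SOX17+ cells held 1.84, 0.787 and 4.89 TPM of Cer1, below the double-positive cells of the same number. Cer1 too was named after its values were seen. Of 9 mid and hindgut genes 2 rose and 4 fell (median -0.44). Hnf4a, a nuclear receptor of liver, gut and visceral endoderm, rose from 0.395, 0.644 and 0.627 TPM to 5.83, 5.68 and 4.94 TPM (2.06 ± 0.08).

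The SOX17 protein also marks extraembryonic endoderm, so those genes were examined separately. Of 14 visceral and extraembryonic endoderm genes tested, 6 rose and 3 fell (median 0.12, or 0.34 with a pseudocount of 0.1). Over all tested genes 12.6% rose and 15.8% fell. The rises included Hnf4a, the thyroxine carrier Ttr (0.735, 1.06 and 1.86 TPM against 4.89, 4.91 and 4.26 TPM, 1.39 ± 0.15), the apolipoprotein Apoe, the basement membrane collagen Col4a1 (1.07 ± 0.1) and Sox7 (0.73 ± 0.11). Of the secreted products of visceral endoderm, Afp and Apoa1 were near 0 in both groups, at most 0.109 TPM and 0.104 TPM, whereas Ttr rose. What part extraembryonic endoderm cells have in these libraries was not tested. Rhox5 and Lama1 fell by 0.63 ± 0.13 and 0.67 ± 0.11.

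Epithelial genes were higher in the double-positive cells. Of 20 tested junction and polarity genes 18 rose and none fell (median 1.29), against 12.6% of all genes. E-cadherin (Cdh1), the adhesion molecule lost when cells leave the epiblast, stood at 32.7, 31.2 and 37.5 TPM in T+ and at 105.9, 97.4 and 108.4 TPM in SOX17+/T+. The cell adhesion gene Epcam stood at 32.1, 33 and 35.8 TPM against 110.9, 101.6 and 101.7 TPM. Both were well expressed in T+ cells and about as even between replicates after the gain. The claudins Cldn6 (2.07 ± 0.09) and Cldn7, the tricellular junction gene Marveld2 (1.87 ± 0.09), occludin (Ocln, 1.69 ± 0.09) and Tjp3 (1.63 ± 0.1) rose, while the scaffold Tjp1, already at 62.5, 58.9 and 57.4 TPM in T+, was at 72.8, 66.9 and 70.6 TPM. The members that did not pass were Cldn3 and Cldn9.

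Regulators and proteases of epithelia followed, with 14 of 15 tested rising and none falling (median 1.47). Ovol2, a zinc-finger repressor of mesenchymal genes, rose from 0.61, 0.971 and 0.523 TPM to 5.3, 4.84 and 4.9 TPM (1.83 ± 0.12). The splicing factor Esrp1, which sets epithelial isoforms, rose from 10.5, 10.6 and 10.9 TPM to 36.4, 33.7 and 30.1 TPM (1.56 ± 0.06). Rab25 and Ap1m2, which serve apical and basolateral membrane traffic, rose by 2.06 ± 0.1 and 1.82 ± 0.1. The protease inhibitor Spint2 rose by 1.66 ± 0.05. Grhl2, the Grainyhead factor of epithelial junction genes, was at 0.879, 1.27 and 1.02 TPM in T+ and at 3.89, 3.26 and 3.48 TPM in SOX17+/T+. The one tested member that did not pass was Grhl3. Of 14 keratin and desmosome genes tested 12 rose and none fell (median 0.63). The simple keratins Krt8 (149.6, 201.4 and 189.8 TPM against 525.1, 533.7 and 524.5 TPM, 1.56 ± 0.09), Krt18 (1.74 ± 0.08) and Krt7 (1.97 ± 0.14) rose most, with Perp, a desmosome-associated p53 target, at 1.49 ± 0.06. Krt19 rose by 0.78 ± 0.17 and the desmosomal plakophilin gene Pkp3 by 0.91 ± 0.11, and desmoplakin (Dsp) was at 34.2, 36.9 and 34.7 TPM against 49.9, 48.1 and 49.4 TPM.

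Mesenchymal genes moved the other way without being lost. Of 17 tested, 12 fell and none rose (median -0.54), against 15.8% of all genes that fell. Snai1, the zinc-finger repressor of E-cadherin at the streak, stood at 70.1, 66.9 and 62.2 TPM in T+ and at 26.1, 27.7 and 31.8 TPM in SOX17+/T+ (-1.19 ± 0.09). Pdgfra, a receptor of early mesoderm, went from 43.2, 47 and 35.2 TPM to 16.6, 18.1 and 14.9 TPM (-1.28 ± 0.1). Twist1 fell by 1.1 ± 0.14, Lix1 by 1.03 ± 0.12, Zeb1 by 0.75 ± 0.07 and Zeb2 by 0.72 ± 0.14. N-cadherin (Cdh2) overlapped at 75.7, 71.4 and 74.6 TPM against 68.5, 56.2 and 74.4 TPM, and so did Snai2. E-cadherin and N-cadherin transcripts were thus both present in the double-positive libraries. Of 25 basement membrane and integrin genes 13 rose and 5 fell (median 0.13). The collagen IV chains Col4a1 (1.07 ± 0.1) and Col4a2 (0.81 ± 0.11), Lama5 (0.71 ± 0.07), Itga3 (0.98 ± 0.07) and Itgb4 (0.84 ± 0.08) rose, and Lama1 fell. Among other collagens 8 of 15 fell and 3 rose (median -0.35), the rises being Col9a3 (1.56 ± 0.11), Col1a2 (1.55 ± 0.1) and Col2a1 (9.34, 9.36 and 14.7 TPM against 15.8, 14.4 and 16.8 TPM), the last not called without T+ replicate 1 or 2 or SOX17+/T+ replicate 1 or 3 (adjusted p up to 0.13). Col1a1, whose chain pairs with that of Col1a2, was at 30.4, 41 and 32.5 TPM against 20.3, 26.6 and 23.3 TPM.

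**Figure D4:**
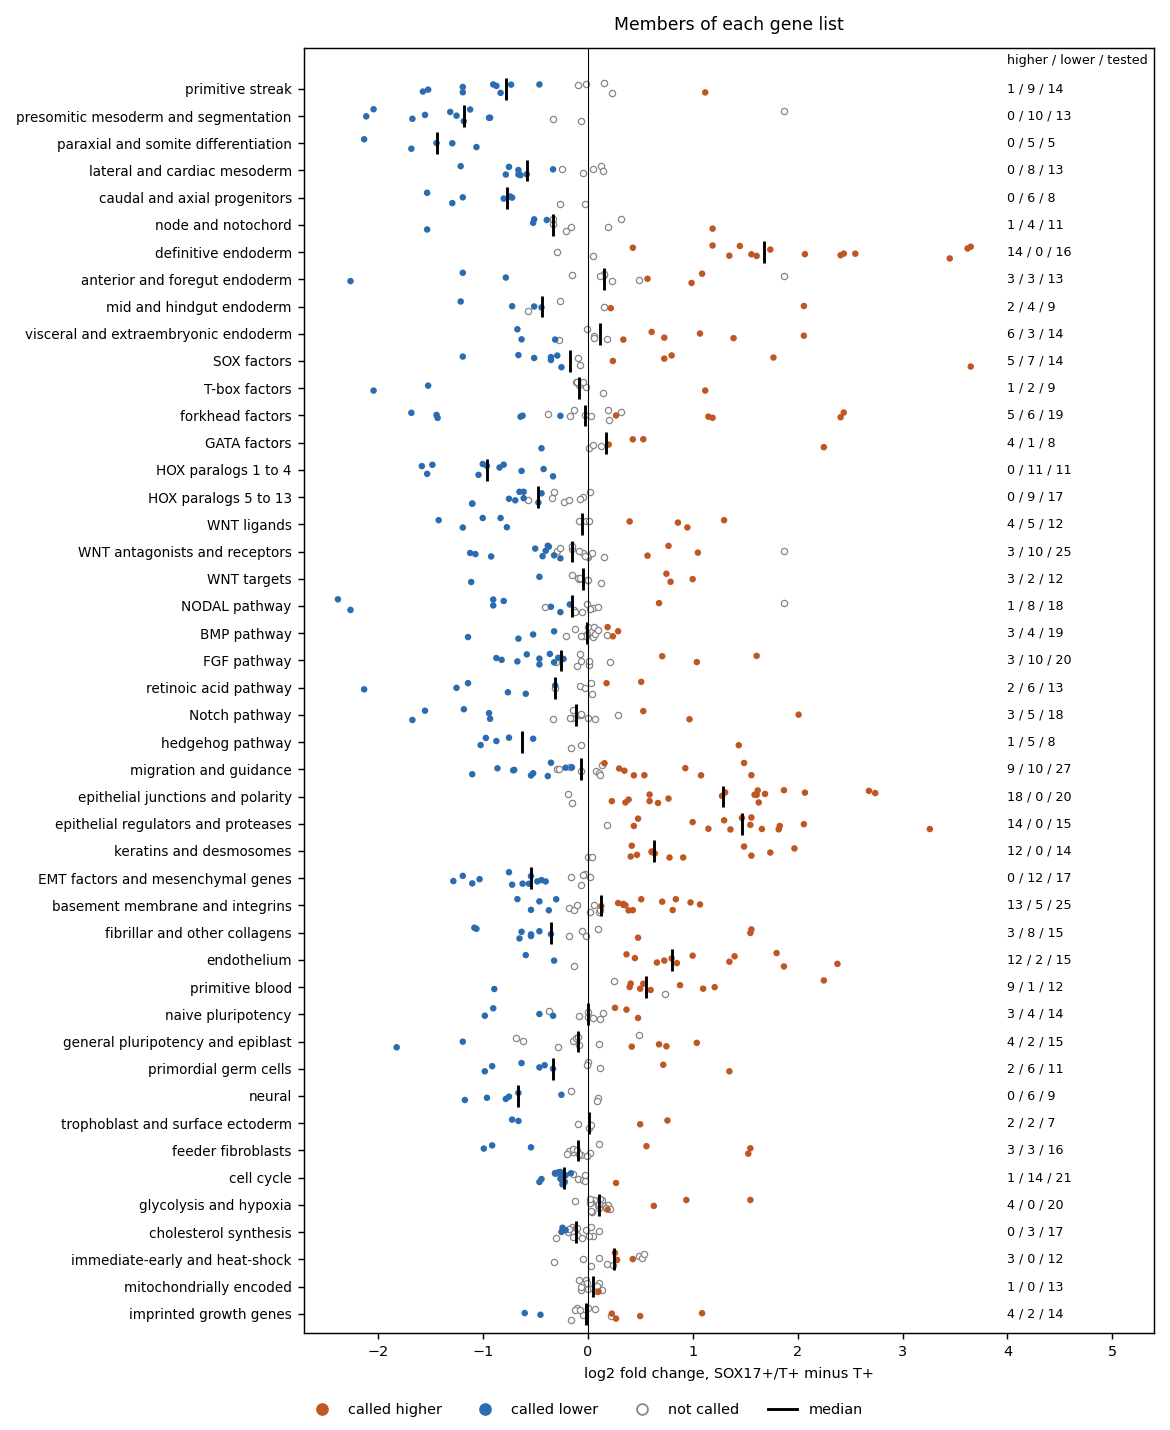
Log2 fold change (SOX17+/T+ minus T+) of the tested members of 46 gene lists, 1 point a gene, filled where called, with the median as a bar and the counts called higher, called lower and tested at the right. The definitive endoderm, epithelial and keratin lists lie to the right (medians 1.68, 1.29, 1.47 and 0.63), and the streak, mesoderm and HOX lists to the left.

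Ligands, receptors, inhibitors and targets of signalling pathways were examined separately. The counts of each pathway stand beside 15.8% of all tested genes that fell and 12.6% that rose. In the NODAL pathway 8 of 18 genes fell and 1 rose (median -0.15). Nodal itself went from 13.8, 11.2 and 13.5 TPM to 6.16, 5.2 and 8.1 TPM (-0.9 ± 0.16), and its co-receptor gene Tdgf1 from 28.7, 23.7 and 28.6 TPM to 14.2, 10.5 and 18.3 TPM (-0.9 ± 0.17). The feedback inhibitors Lefty1 (-2.26 ± 0.19) and Lefty2 fell as well. The co-receptor gene Cfc1 did not pass, at 293.7, 322.3 and 294.1 TPM against 273.8, 277.4 and 281.9 TPM. The one rise was that of the proprotein convertase Pcsk6 (0.68 ± 0.08), which processes NODAL-family precursors.

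WNT ligands divided, with 5 of 12 lower and 4 higher (median -0.05). Wnt8a (4.07, 2.96 and 2.31 TPM against 0.775, 0.479 and 0.327 TPM, -1.42 ± 0.14), Wnt3a and Wnt5a (34.7, 38.8 and 31.8 TPM against 16.1, 17 and 17.9 TPM, -1.0 ± 0.1) fell. Wnt11, which signals mainly without beta-catenin, rose from 3.91, 4.31 and 3.5 TPM to 13.1, 9.29 and 11 TPM (1.3 ± 0.13) and was at 8.4, 7.69 and 6.98 TPM in SOX17+ cells. Wnt9a (0.95 ± 0.12) and Wnt10b (0.86 ± 0.13) rose too. Among antagonists and receptors 10 of 25 fell and 3 rose (median -0.15): Rspo3 (-1.12 ± 0.09), Fzd10 (-1.07 ± 0.08) and Sfrp1 (-0.92 ± 0.15) fell, while Wif1 (1.05 ± 0.12), Fzd5 (0.77 ± 0.13) and Dkk1 rose. WNT target genes did not move as one, with 3 of 12 higher and 2 lower (median -0.04). Lef1, at once a target and a nuclear effector, fell from 84.5, 78.8 and 73.3 TPM to 34.9, 36.7 and 36.6 TPM (-1.11 ± 0.08), Lgr5 (1.0 ± 0.16), Rnf43 (0.79 ± 0.08) and Sp8 (0.75 ± 0.11) rose, and the general target Axin2 (53, 51.2 and 50.2 TPM against 49.5, 49.2 and 47.1 TPM) did not pass.

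In the FGF pathway 10 of 20 genes fell and 3 rose (median -0.25), and 6 fell when T+ replicate 1 was left out. Fgf8, the main ligand of the streak, went from 138.3, 122.5 and 100.1 TPM to 69.4, 54.1 and 72.4 TPM (-0.87 ± 0.22, limma adjusted p = 0.014). The call was lost without SOX17+/T+ replicate 2 (adjusted p = 0.054) or without T+ replicate 1 (adjusted p = 0.051). Fgf5, an epiblast ligand, rose from 2.39, 1.56 and 3.51 TPM to 6.31, 3.82 and 8.76 TPM (1.04 ± 0.27, limma adjusted p = 0.015), with the call lost without T+ replicate 2 (adjusted p = 0.056). The receptor gene Fgfr4 rose from 0.423, 0.563 and 0.559 TPM to 4.05, 4.07 and 2.87 TPM (1.61 ± 0.1) and the feedback inhibitor Spry1 by 0.71 ± 0.06. The main receptor Fgfr1 overlapped, at 70.9, 68.4 and 64 TPM against 56.9, 65.9 and 67.7 TPM.

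BMP genes changed little as a list, with 4 of 19 lower, 3 higher and a median of -0.01. Over all tested genes 15.8% were lower and 12.6% higher. Bmp4, the ligand of posterior streak and extraembryonic mesoderm, fell from 192.6, 201.1 and 190.5 TPM to 118.6, 124.7 and 124.7 TPM (-0.66 ± 0.04, limma adjusted p = 2.30e-07), and the activin and BMP inhibitor Fst fell by 1.14 ± 0.08. The 3 rises became 1 without SOX17+/T+ replicate 1 or T+ replicate 3. The BMP target Msx2 rose by 0.29 ± 0.06. Id1, another target, was at 210.9, 215.7 and 198.7 TPM against 250.3, 243.3 and 244.8 TPM (0.24 ± 0.08, limma adjusted p = 0.039), a call not held with the replicate block (adjusted p = 0.068) nor after leaving out any 1 of the 6 libraries (adjusted p 0.056 to 0.13).

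Retinoic acid genes fell in 6 of 13 cases and rose in 2 (median -0.31). The median was -0.07 with no filter on low values and -0.17 without T+ replicate 1, the falls numbered 4 without T+ replicate 2, and the rises numbered 1 without SOX17+/T+ replicate 1 or T+ replicate 2 and 0 without T+ replicate 3. Besides Aldh1a2, the preceding enzyme Rdh10 went from 16.5, 16.5 and 16.6 TPM to 5.82, 6.25 and 7.1 TPM (-1.25 ± 0.07), the binding protein Crabp1 fell by 1.14 ± 0.12 and the retinol receptor Stra6 by 0.76 ± 0.09. The degrading enzyme Cyp26a1 overlapped, at 13.7, 8.68 and 10.7 TPM against 11.8, 8.56 and 11.8 TPM. In the Notch pathway 5 of 18 fell and 3 rose (median -0.11). The delta-type ligands, Notch1 (-0.94 ± 0.09) and the Fringe glycosyltransferase Lfng (-1.18 ± 0.14) fell, whereas another Fringe gene, Mfng, rose from 0.531, 0.723 and 0.697 TPM to 6.05, 4.78 and 6.18 TPM (2.01 ± 0.11) and the ligand Jag2 by 0.97 ± 0.11. Hedgehog genes fell in 5 of 8 cases and rose in 1 (median -0.63, or -0.34 with no filter). The receptor and target Ptch1 went from 108.2, 106.8 and 141.2 TPM to 55.2, 58.1 and 80.7 TPM (-0.87 ± 0.15), and Gli1 (-1.02 ± 0.12), Gli2 and Gli3 fell. The rise was that of the ligand Ihh, made by visceral and gut endoderm, from 0.361, 0.6 and 0.635 TPM to 3.22, 3.26 and 2.93 TPM (1.44 ± 0.09).

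Receptors and ligands of cell migration changed in both directions, 9 of 27 higher and 10 lower (median -0.06), against 12.6% and 15.8% of all tested genes. The apelin receptor Aplnr, a mesoderm receptor, fell from 113.9, 99.7 and 107.9 TPM to 58.3, 57.5 and 60 TPM (-0.86 ± 0.06), while Apela, the peptide ligand of that receptor, rose from 61.8, 77.2 and 69 TPM to 200.7, 210.0 and 176.9 TPM (1.49 ± 0.08). Flrt3, an adhesion protein of anterior endoderm, rose from 10.7, 9.25 and 14.9 TPM to 38.6, 33.6 and 34.8 TPM (1.56 ± 0.13). The guidance genes Ntn1 (1.08 ± 0.18) and Sema3a (0.93 ± 0.14) rose and the semaphorin receptor Plxna2 fell (-1.1 ± 0.1). Ntn1 was at 14.1, 10.7 and 16.2 TPM in SOX17+/T+ and lower in both T+ (5.52, 4.92 and 7.37 TPM) and SOX17+ (7.89, 4.98 and 8.14 TPM).

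SOX17 is also an endothelial factor, and most endothelial genes rose, at low levels for genes such as Cdh5. Of 15 tested, 12 rose, 2 fell and 1 was not called (median 0.8), where 12.6% of all tested genes rose and 15.8% fell. The summed level of the list was 86.9 to 92.6 TPM in T+ and 147.5 to 160.5 TPM in SOX17+/T+. Flt1, a VEGF receptor, made up much of that sum in SOX17+/T+ and most of its gain, at 12, 11.1 and 10.4 TPM against 71.2, 55.7 and 61.2 TPM (2.38 ± 0.1). VE-cadherin (Cdh5), which defines endothelium, went from 0.505, 0.78 and 0.645 TPM to 5.06, 5.55 and 4.37 TPM (1.87 ± 0.1), Tie1 rose by 1.8 ± 0.12, Cldn5 by 1.4 ± 0.13, Esam by 1.35 ± 0.1 and Erg by 1.0 ± 0.1. The 2 genes that fell act earliest in that lineage. Kdr was at 26.6, 27.8 and 29.4 TPM against 21.9, 21.1 and 23.7 TPM (not called without SOX17+/T+ replicate 1 or 2 or T+ replicate 3, adjusted p up to 0.07), and Etv2 at 5.01, 5.55 and 5.95 TPM against 4.14, 3.07 and 2.8 TPM. Cells sorted as SOX17+ held still more Cdh5 (15.8, 17.1 and 13.6 TPM).

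Primitive blood genes showed 9 rises and 1 fall among 12 tested, against 12.6% and 15.8% of all tested genes (median 0.56, or 1.25 with a pseudocount of 0.1). Their summed level overlapped, at 37.7 to 44.7 TPM in T+ and 39.0 to 49.7 TPM in SOX17+/T+. Most of that sum in T+ was Lmo2, the gene that fell, so the sum says little of the genes that rose. Gata1, the erythroid and megakaryocyte factor, went from 0.189, 0.208 and 0.606 TPM to 4.97, 4.56 and 6.46 TPM (2.25 ± 0.17), Itga2b rose by 1.1 ± 0.11 and Runx1 by 0.88 ± 0.12. The fall was that of Lmo2 (29.2, 29.8 and 35.2 TPM against 16.3, 14.2 and 19.2 TPM, -0.89 ± 0.11). Embryonic globins stayed low: Hba-x was at 0.262, 0.715 and 0.417 TPM against 1.15, 2.96 and 3.43 TPM (1.21 ± 0.34, limma adjusted p = 0.023), a call lost without T+ replicate 1 or 3 or SOX17+/T+ replicate 2 or 3 (adjusted p 0.066 to 0.083). Hbb-bh1 was at 1.06, 1.64 and 1.31 TPM against 1.66, 2.56 and 5.14 TPM and did not pass, Hbb-y was listed at 0 in all 6 libraries, and the pan-leukocyte gene Ptprc was at most 0.0141 TPM. What part endothelial or blood cells in the double-positive gate have in the rises of other genes was not tested.

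**Figure D5:**
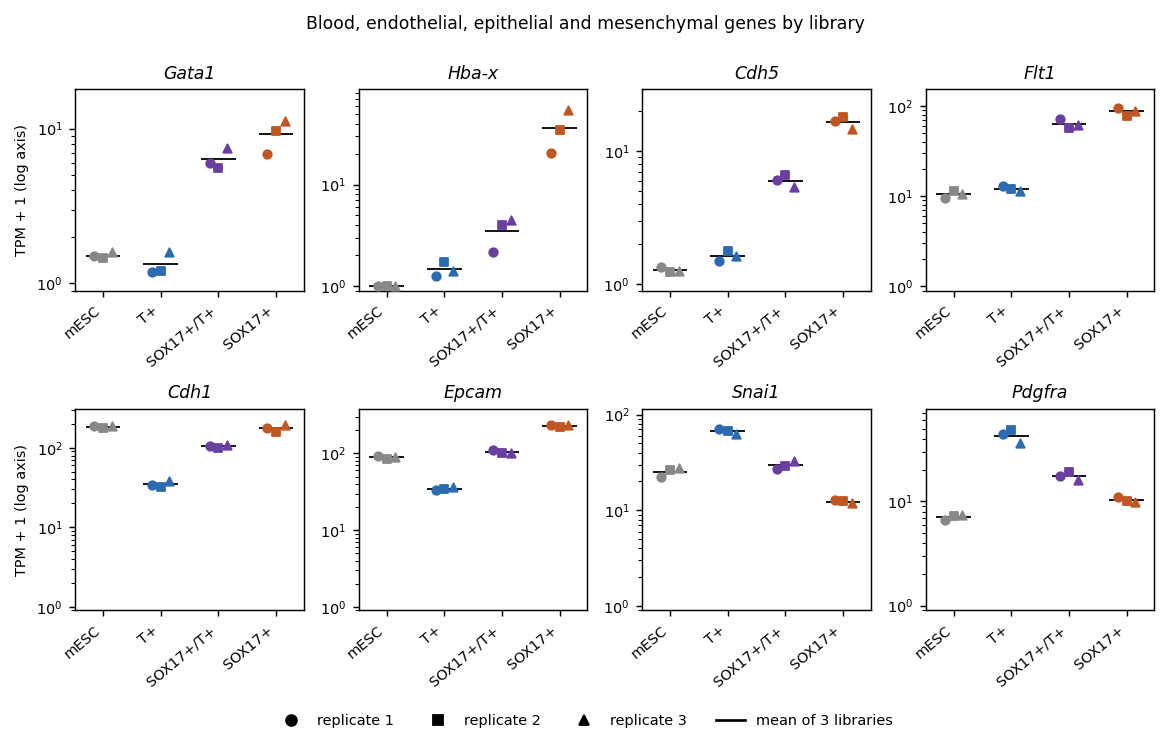
TPM + 1 on a log axis for 2 blood genes (Gata1, Hba-x), 2 endothelial genes (Cdh5, Flt1), 2 epithelial genes (Cdh1, Epcam) and 2 mesenchymal genes (Snai1, Pdgfra) in each library; symbols mark the replicate number and lines the mean of 3. The first 6 were higher and Snai1 and Pdgfra lower in every SOX17+/T+ library than in every T+ library.

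Markers of other cell types that such cultures could hold were examined next, beside 12.6% of all tested genes that rose and 15.8% that fell. Feeder fibroblast genes had 3 rises and 3 falls among 16, and their summed level overlapped (92.8 to 107.3 TPM in T+, 82.7 to 95.4 TPM in SOX17+/T+). The fibroblast genes Lum and Dcn were at most 0.374 TPM, whereas Col1a1, given above, was higher than that in both groups. In undifferentiated mESC the means of the same list summed to 6168 TPM. What part feeder cells have in the 6 compared libraries was not tested. The rises, Col1a2, Thbs1 (1.53 ± 0.13) and Fbln2, and the falls, Acta2 (-0.99 ± 0.09), Thy1 (-0.91 ± 0.09) and Col1a1, are also expressed outside fibroblasts. Trophoblast and surface ectoderm genes had 2 rises, Tfap2a and Ascl2, and 2 falls, Cdx2 and Hand1, among 7 tested, and Elf5, Krt14 and Prl3d1 were listed at 0 in all 6 libraries. Neural genes fell in 6 of 9 cases with no rise (median -0.66, or -1.03 with a pseudocount of 0.1 and -0.21 with no filter), among them the adhesion gene Ncam1 (14.7, 16.2 and 13.6 TPM against 8.58, 5.93 and 6.99 TPM, -0.96 ± 0.12) and the microtubule gene Map2 (-0.78 ± 0.13), and Pax6 was at most 0.182 TPM.

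Pluripotency genes did not change as a block, where 12.6% of all tested genes rose and 15.8% fell. Pou5f1 (OCT4), which persists in streak cells, fell from 108.5, 92.5 and 74.9 TPM to 26.7, 26.2 and 22.3 TPM (-1.82 ± 0.11, limma adjusted p = 3.93e-07), and Sox2 fell from 4.82, 3.93 and 4.25 TPM to 1.22, 1.31 and 1.46 TPM (-1.19 ± 0.13). Nanog overlapped at 13.2, 11.3 and 15.3 TPM against 13.2, 8.87 and 16.2 TPM. Lin28a (0.68 ± 0.07), the DNA methyltransferase Dnmt3b (0.75 ± 0.08), Sall4 (0.42 ± 0.05) and Fgf5 rose. Over the general pluripotency list 4 of 15 rose and 2 fell (median -0.09), with 4 falls under the replicate block, and over the naive list 3 of 14 rose and 4 fell, with a median of 0. Among germ cell genes Prdm1 and Kit (0.72 ± 0.07) rose and 6 of 11 fell, among them Prdm14 (-0.98 ± 0.11) and Alpl (-0.91 ± 0.08). Dppa3, a defining germ cell gene, was listed at 0 in all 6 libraries.

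Genes of proliferation were slightly lower. Of 21 cell cycle genes 14 fell and 1 rose, where 15.8% of all tested genes fell and 12.6% rose, but the median was only -0.23. The D-type cyclins changed most, Ccnd1 from 114, 110.8 and 116.8 TPM to 77.7, 80.4 and 89.2 TPM (-0.46 ± 0.05) and Ccnd2 from 90.4, 91.9 and 82 TPM to 62.4, 67.6 and 63.4 TPM (-0.44 ± 0.05). The rise was that of the CDK inhibitor Cdkn1c (0.27 ± 0.08), not called without SOX17+/T+ replicate 2 (adjusted p = 0.084). Replication genes such as Pcna (250.6, 233 and 243.8 TPM against 240.9, 224.2 and 244.6 TPM) overlapped. Among glycolysis and hypoxia genes 4 of 20 genes rose and none fell (median 0.11), with 7 rises under the replicate block and 8 without SOX17+/T+ replicate 3. Slc2a3 went from 570.7, 591.9 and 432.9 TPM to 1792, 1658 and 1228 TPM (1.55 ± 0.15), and Slc2a1 from 584.5, 567.4 and 488.9 TPM to 1192, 1089 and 882.9 TPM (0.94 ± 0.12). Replicate 3 was the lowest of its group for both genes in both sorts. Vegfa rose by 0.63 ± 0.07. Ldha rose by 0.19 ± 0.06 (limma adjusted p = 0.039), a call lost without T+ replicate 1 or 3 or SOX17+/T+ replicate 1 or 2 (adjusted p 0.052 to 0.13). Pkm, Aldoa, Pfkl and Hk2 overlapped between the groups. Immediate-early and heat-shock genes, which respond to dissociation and sorting, had 3 rises of 12 (Jun, Junb and Zfp36, median 0.25), with 6 under the replicate block, 1 without T+ replicate 1 and 5 without T+ replicate 2. Junb was at 11.3, 11.6 and 9.42 TPM in T+ and at 16.4, 15 and 13.1 TPM in SOX17+/T+, and T+ replicate 1 or SOX17+/T+ replicate 1 decided the calls of both Jun and Zfp36 (adjusted p without it up to 0.07), as did T+ replicate 2 and SOX17+/T+ replicate 3 that of Jun.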

How the data were processed

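RNA of 12 sorted or undifferentiated libraries was sequenced from stranded polyA libraries, per the labels' protocols. The authors deposited TPM values per gene; cutadapt, STAR and StringTie and the build GRCm38 (mm10) are named per the submitters' processing notes, without versions. The annotation release is not stated there. From 54480 table rows, 282 empty cells were set to 0 and the 11 genes spread over several rows were summed, giving 54446 genes. TPM carries no depth, so no counting error can be given. Genes with at least 1 TPM in at least 3 libraries (16097) were fitted with limma 3.58.1 (R 4.3.3; trend and robust moderation) on log2(TPM + 1), with 4 group means over all 12 libraries (8 residual degrees of freedom) and Benjamini-Hochberg adjustment over all genes. The script was tested on simulated data.

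Same-numbered libraries of both sorts deviated together from their group means, with r of 0.204, 0.149 and 0.242 for replicates 1, 2 and 3. For different numbers r was -0.209 to 0.00816, lowered in part because the deviations of a group cancel out. The labels do not state that the numbers are pairs, and the main fit holds the group only. The fit with the number as a block is an alternative, given where it changes a call. The 46 gene lists hold 632 genes, of which 569 were tested; for 2 symbols with 2 identifiers the one with the higher mean was used. Genes named with test values are T and Sox17, the 15 largest rises and falls with non-overlapping groups and a mean of at least 10 TPM, the 5 largest TPM differences each way, and up to 6 called members with the largest change per list; others are given by level, and a few genes the rule names are not reported here. The lists, motifs and members were chosen with earlier results of these data known. Alternatives were another pseudocount, no filter, 2 other scalings, 6 libraries only, the block, plain moderation, and leaving out each library.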

Additional observations from a re-analysis of the deposited data

How the results depend on the processing

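The number of genes called between SOX17+/T+ and T+ (4578) was 4080 with no filter on low values, 4693 after median-of-ratios scaling, 4788 after quantile normalization, 4135 from the 6 libraries alone and 4494 without trend and robust moderation. It was 5202 with the replicate block and 5174 with that block in the 6 libraries alone, and leaving out 1 library gave 3653 to 4545. The count of genes at least 2-fold apart rose from 403 to 871 with a pseudocount of 0.1, which shrinks low values less, and was 384 to 416 with 1 library left out. Of the genes called, 44.4% were higher, and 50.8% after median-of-ratios scaling, which moved the median of all genes from -0.031 to -0.011. T ranged from -1.77 to -1.3 and Sox17 from 3.49 to 3.81 with 1 library left out, both called each time. Of 235 genes named by rule, the block in 12 libraries changed the call of Id1 alone. With no filter 12 of these genes lost their call, and with 1 library left out 8 to 16 did. No gene called both in the main analysis and in an alternative had the opposite sign. Zic2, which was not called (0.09), was at -0.03 without SOX17+/T+ replicate 3 and at up to 0.22 with another library left out. The BMP and imprinted lists, with medians near 0, changed the sign of their median with the scaling. Without T+ replicate 3 the sign changed for 5 lists: migration and guidance, general pluripotency and epiblast, trophoblast and surface ectoderm, feeder fibroblasts and imprinted growth genes. Without another library it changed for 1 to 3 lists. Depth is unknown from TPM, so what it limits cannot be stated.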

Other observations

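Other transcription factor families and imprinted genes are described here as values only, beside 12.6% of all tested genes that rose and 15.8% that fell. Besides Sox17, 4 further SOX genes rose and 7 of the 14 tested fell (median -0.17). Sox21, a neural and epithelial repressor, stood at 1.16, 0.902 and 1.76 TPM in T+ and at 6.78, 5.62 and 7.79 TPM in SOX17+/T+. Sox7 and Sox18, which share the SOXF class with Sox17, rose by 0.73 ± 0.11 and 0.8 ± 0.12. In the forkhead family 5 of 19 tested rose and 6 fell (median -0.03), the falls including Foxb1 and the rises Foxq1. Of 8 GATA and cofactor genes 4 rose, among them Gata6, an endoderm and heart factor, from 40.8, 49 and 42.7 TPM to 59.8, 58.9 and 61 TPM, and 1 fell. Of 14 imprinted growth genes 4 rose and 2 fell (median -0.02). The largest of these changes was that of Phlda2, a placental growth restrictor, from 334, 351 and 313 TPM to 746, 749 and 643 TPM (1.09 ± 0.06).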
